A study of Bos taurus with 6 samples.

Results

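The genes described here are 10 targets of the hypoxia response that act outside glycolysis, namely NDRG1, BNIP3, BNIP3L, CA9, CA12, ADM, KDM3A, NDUFA4L2, STC1 and STC2. They were taken from the deposited expression table by gene symbol. Each symbol had a single transcript cluster, the set of probes that the array summarizes to one value, so that 10 of the 26773 transcript clusters of the table were concerned. The 26773 include 82 reporter control rows, here and in all shares below. The measurements came from primary bovine granulosa cells (GC) kept serum-free for 9 days with FSH, IGF-1 and androstenedione. In 3 cultures the cells had been plated at normal density and in 3 at high density, and the initial plating density was the factor that differed between the groups. The GC came from small to medium follicles of abattoir ovaries, pooled over cows of undefined cycle stage, so a culture does not stand for an animal. The methods speak of separate GC preparations but not of separate animals, and the labels are silent on both, so the p-values measure only the spread between these samples, which may be technical.

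When oxygen is plentiful, prolyl hydroxylases of the EGLN family mark the alpha subunits of the hypoxia-inducible factors (HIF) for destruction through the VHL protein. When oxygen is scarce the alpha subunits persist, pair with ARNT and switch on target genes. Those of glycolysis raise the yield of energy without oxygen. Others, for example, remove mitochondria, control pH, signal to vessels or alter chromatin. The 10 genes are targets outside glycolysis, and not all of them act in these ways. The granulosa layer has no vessels of its own before ovulation, and vessels grow into it as the corpus luteum forms. Oxygen was not a factor of the design, and the genes are named here for what they are known to do.

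Of the 10 genes, 5 were called up at high density and 0 were called down. The called genes were STC2, NDRG1, CA9, NDUFA4L2 and BNIP3, with measured rises of the log2 signal between 0.74 and 2.55. The other 5 genes, ADM, CA12, STC1, KDM3A and BNIP3L, differed by between 0.06 and 0.36 on the log2 scale and were not called. A transcript cluster is termed called when its fold change (FC) was above 1.5 in size and its p-value and false discovery rate (FDR) from limma were below 0.05. By this rule 3.97% of all transcript clusters were called up and 3.51% were called down. The mean signal was higher at high density for all 10 genes, as it was for 53.6% of all transcript clusters. The median log2 difference, high minus normal density, was 0.55 over the 10 genes and 0.02 over all transcript clusters.

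The FDR alone, at any FC, was passed by 7 of the genes, all with the higher signal at high density, against 8.64% of all transcript clusters. In 9 of the genes the 3 high density cultures lay above the 3 normal density cultures, which held for 17.8% of all transcript clusters. The exception was BNIP3L. These genes were listed with earlier results of the same data known, so the counts are a description of the list.

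**Figure D1:**
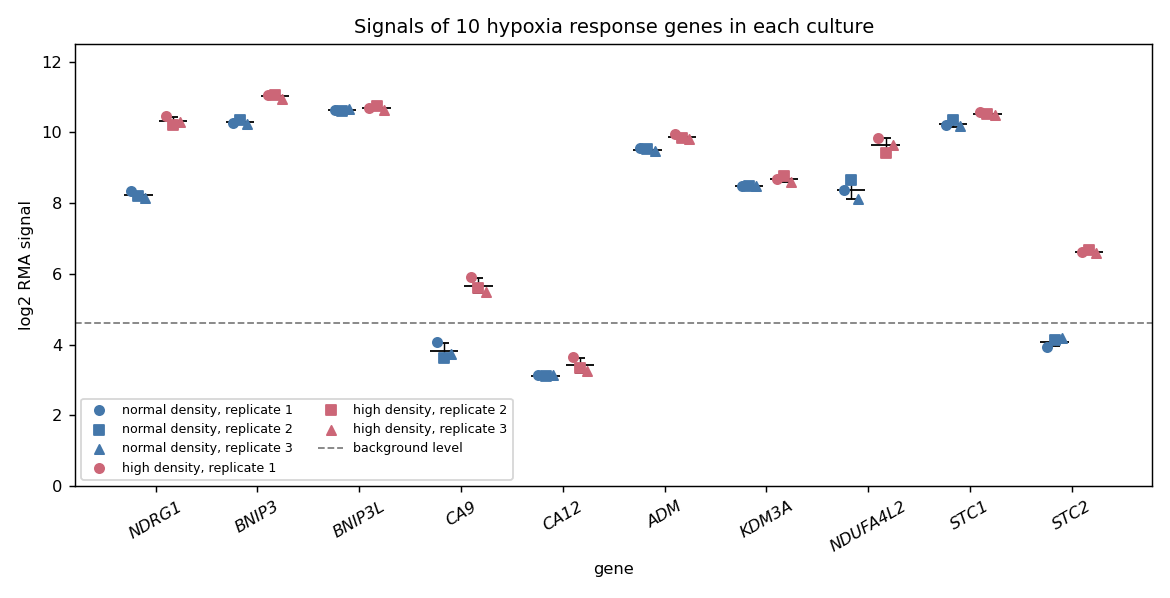
Log2 RMA signals (vertical axis) of the 10 genes (horizontal axis) in the 3 normal density (blue) and 3 high density (red) cultures, with a marker shape per replicate number. Black lines are means with SD (n = 3), and the dashed line is the background level of 4.62. The high density cultures of STC2, NDRG1 and CA9 lie far above the normal density cultures, those of BNIP3L overlap with them, and all signals of CA12 lie under the dashed line.

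The background level of 4.62 on the log2 scale is the 95th percentile of the signals of 82 reporter control rows. In 7 of the 10 genes the means of both densities were above it. CA9 and STC2 were above it at high density only, and CA12 at neither density. The shares given for all transcript clusters include those below background at both densities. Of the 10 genes 9 were above it at one density at least, so these shares are not of genes with like signals. With a filter at the background level 912 transcript clusters were called up and 783 down. Array medians were between 4.34 and 4.43. Among the 3 high density cultures, replicate 2 had the lowest signal in 44.1% of all transcript clusters. Granulosa cell identity was checked with 15 marker genes, all above background at one density at least, of which 6 were called down (CYP19A1, FSHR, INHA, INHBA, FST and FOXL2) and 1 up (HSD17B1). Their summed linear signal was 9137 to 9788 at normal and 7847 to 8000 at high density. The 10 leukocyte markers had means below background at both densities (sums of 97.5 to 100.4 and 94.8 to 112), as had 8 of 9 endothelial markers, the exception being VWF (sums of 101 to 108 and 111 to 118). Of 8 red cell markers 7 were below background, HBB among them, but HBA was called up and rose at least 27.0-fold, so that their sum was 63.5 to 65.8 at normal and 626 to 939 at high density. The summed linear signal of the theca list was 327 to 360 at normal and 675 to 782 at high density. INSL3 was called up in it (mean log2 signal 7.20 at normal and 9.02 at high density) and LHCGR down. LHCGR, GLI1 and the theca enzyme CYP17A1 were below background in both groups, and NR2F2 and PTCH1 were not called (−0.07 and 0.31). The paper reports LHCGR as a GC transcript that also fell by qPCR, so LHCGR is not particular to theca cells. The sum of the surface epithelium list was 182 to 218 at normal and 1028 to 1152 at high density, with KRT8 and KRT18 called up and EPCAM, KRT7, KRT19 and UPK3B below background. The sum of the fibroblast and smooth muscle list was 5583 to 5751 and 6274 to 6469, with 3 of 10 genes called up (COL1A1, ACTA2 and PDGFRB) and 1 down (MYH11). The part of these lists in the results below was not tested, and in RNA of whole cultures fewer cells of a type and less RNA per cell cannot be told apart.

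NDRG1 encodes a cytoplasmic protein that is induced by stress and differentiation and restrains growth in many epithelial cells. Its log2 signals were 8.34, 8.20 and 8.15 in normal density replicates 1 to 3 and 10.45, 10.21 and 10.29 in high density replicates 1 to 3. The lowest high density culture lay 1.87 above the highest normal density culture, so the groups were far apart. The group means were 8.23 ± 0.10 and 10.32 ± 0.12 (SD, n = 3), a 4.25-fold rise and a log2 difference of 2.09 (standard error 0.09, limma's adjusted p = 2.08e-05). A larger rise was found in 0.235% of all transcript clusters. NDRG2, NDRG3 and NDRG4, the relatives of NDRG1, were above background and none of them was called, with log2 differences between −0.22 and 0.00 and a median of −0.17. The median was −0.09 without high density replicate 2 and −0.11 under a second quantile normalization. NDRG3, at −0.22, was lower at high density by the FDR alone (limma's adjusted p = 0.0460).

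BNIP3 and BNIP3L encode a pair of related proteins of the outer mitochondrial membrane which tether mitochondria to the autophagy machinery and are both known targets of HIF. BNIP3 had log2 signals of 10.28, 10.34 and 10.25 at normal density and of 11.06, 11.06 and 10.96 at high density. The cultures of a density were close together and the groups separate. The log2 difference of BNIP3 was 0.74 (95% interval 0.57 to 0.90, limma's adjusted p = 4.95e-04), a 1.67-fold rise.

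The log2 signals of BNIP3L were 10.62, 10.62 and 10.67 at normal density and 10.70, 10.75 and 10.65 at high density. High density replicate 3 lay below normal density replicate 3, so the groups overlapped. The log2 difference was 0.06 (95% interval −0.09 to 0.22, limma's adjusted p = 0.574), and an FC at the threshold, 0.58 on the log2 scale, lies outside this interval. The signal of BNIP3 relative to that of BNIP3L moved up by 0.67 on the log2 scale from normal to high density, without overlap between the groups. Of 17 other genes of mitophagy, such as PINK1, FUNDC1 and SQSTM1, 0 were called, with log2 differences between −0.42 and 0.35 and a median of −0.03. The median was −0.05 without high density replicate 2, −0.07 with the arrays set to one common median and 0.01 under a second quantile normalization. By the FDR alone PHB2 was higher at high density (0.35) and BNIP2 (−0.42) and MAP1LC3B (−0.32) were lower.

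NDUFA4L2 encodes a mitochondrial protein related to the respiratory chain subunit NDUFA4 and is known for lowering oxygen use when induced by HIF. Its log2 signals were 8.36, 8.66 and 8.11 at normal density and 9.85, 9.41 and 9.66 at high density. The groups were separated by 0.75, although the cultures within a density spread widely, with an SD of 0.28 at normal and 0.22 at high density. At normal density this SD was larger than in 95.3% of all transcript clusters. The log2 difference of NDUFA4L2 was 1.26 (95% interval 0.88 to 1.64, limma's adjusted p = 0.00184), a 2.39-fold rise. Among 16 transcript clusters of NDUFA4 and the nuclear-encoded cytochrome c oxidase subunits, 1 was called up and 1 down. With shares of 3.97% and 3.51% over all transcript clusters, such counts say little of the list. The median log2 difference of the 16 was 0.02, and −0.02 when the arrays were set to one common median. COX7A1 rose by 0.59 on the log2 scale, a call that was lost under that setting (0.54). One of the transcript clusters of COX7B (12906547) was called down, with a log2 difference of −0.89 (limma's adjusted p = 0.0241), while its others were not called (0.03 and 0.11).

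CA9 and CA12 encode carbonic anhydrases which sit in the plasma membrane with the enzyme facing outward and help cells to export acid. CA9 had log2 signals of 4.08, 3.62 and 3.73 at normal density, all below background, and of 5.90, 5.59 and 5.50 at high density, all above it. The measured log2 difference was 1.85 (standard error 0.15, limma's adjusted p = 2.44e-04). As the normal density signals were not above background, the rise is best given as at least 2.06-fold, the high density mean against the background level.

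CA12 had log2 signals of 3.14, 3.11 and 3.13 at normal density and of 3.65, 3.33 and 3.27 at high density. The groups did not overlap, but all cultures were below background, and no fold change is given for it. Its limma adjusted p was 0.110. High density replicate 1 stood above the other cultures for CA12, and it was also the highest for CA9. CA9 rose relative to CA12 by 1.56 on the log2 scale without overlap between the groups, a value that rests on signals below background.

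The other carbonic anhydrases and related proteins, not all of them enzymes, moved in both directions. Of 14 transcript clusters 3 were called up and 2 down, against 3.97% and 3.51% of all transcript clusters. The median log2 difference of the 14 was 0.08, or 0.04 with the arrays set to one common median and 0.05 under a second quantile normalization. The cytosolic enzyme CA2 had the largest rise, a log2 difference of 1.68 (standard error 0.08, limma's adjusted p = 3.49e-05). CA10 rose by 1.11, and CA13, whose normal density cultures were all below background, rose at least 1.86-fold. The membrane enzyme CA14 fell to a level below background and was at least 1.47-fold lower, and the mitochondrial enzyme CA5B fell by 0.86 on the log2 scale. Among 8 transporters of protons, bicarbonate and lactate 2 were called up and 2 down, again against 3.97% and 3.51%. The median log2 difference of the transporters was 0.12, which was 0.18 without high density replicate 2 and 0.08 with the arrays set to one common median. SLC16A3, the exporter of lactate, rose by 1.54 and the bicarbonate cotransporter SLC4A7 by 0.74, whereas SLC4A4 and SLC16A7 had log2 differences of −0.74 and −0.59.

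**Figure D2:**
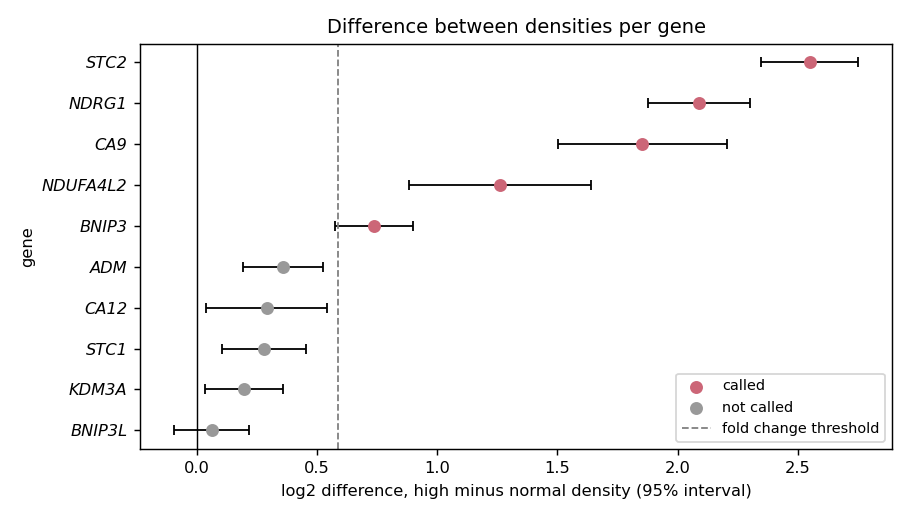
Log2 difference between high and normal density (horizontal axis) of each of the 10 genes (vertical axis, sorted), with 95% intervals from limma. Red points were called and grey points were not, and the dashed line marks the FC threshold of 1.5. The intervals of STC2, NDRG1, CA9 and NDUFA4L2 lie to the right of the dashed line, that of BNIP3 spans it, and that of BNIP3L spans 0.

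ADM, STC1 and STC2 encode secreted peptides and glycoproteins. Adrenomedullin, the product of ADM, widens vessels and promotes their growth, and the stanniocalcins act on calcium and phosphate balance and on the cell's response to stress. STC2 had the largest measured difference of the 10 genes, but over normal density signals below background. Its log2 signals were 3.93, 4.13 and 4.18 at normal density, all below background, and 6.61, 6.69 and 6.60 at high density. The measured log2 difference was 2.55 (95% interval 2.35 to 2.75, limma's adjusted p = 1.07e-05). Against the background level the rise of STC2 was at least 4.03-fold, or 2.01 on the log2 scale, which does not place it above NDRG1 (2.09).

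For STC1, which was well above background, the log2 signals were 10.22, 10.35 and 10.18 at normal density and 10.57, 10.52 and 10.48 at high density. The groups did not overlap, but they were only 0.14 apart. The log2 difference of 0.28 (95% interval 0.11 to 0.45) was a 1.21-fold rise, below the FC threshold. It passed the FDR alone (limma's adjusted p = 0.0382), which was so in only 4 of the 13 alternative settings that gave an adjusted p, with values between 0.00684 and 0.142. The signal of STC2 relative to STC1 moved up by a measured 2.27 on the log2 scale, again without overlap, a value that rests on STC2 signals below background at normal density. The 3 pairs of related genes were set side by side as a description, with no test.

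ADM had log2 signals of 9.55, 9.53 and 9.46 at normal density and of 9.95, 9.83 and 9.82 at high density. The groups were 0.28 apart. The log2 difference was 0.36 (95% interval 0.19 to 0.53, limma's adjusted p = 0.0128), a 1.28-fold rise below the FC threshold. The FDR was not passed when normal density replicate 3 was left out (limma's adjusted p = 0.0615). Among 10 transcript clusters of ADM relatives, receptors and receptor partners 2 were called up, against 3.97% of all transcript clusters. The median log2 difference of the list was 0.16. The receptor partner RAMP1 had signals below background in all normal density cultures and a rise of at least 1.40-fold. By the FDR alone RAMP2, another receptor partner, was also higher at high density (limma's adjusted p = 0.00811). Its normal density cultures were all below background too, and its rise was at least 1.10-fold. The scavenger receptor CXCR7 rose by 0.72 on the log2 scale (limma's adjusted p = 0.00570). CALCRL, the receptor through which ADM acts, was below background at both densities.

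KDM3A encodes a histone demethylase that removes methyl groups from lysine 9 of histone H3 and needs oxygen for its reaction. Its log2 signals were 8.48, 8.50 and 8.48 at normal density and 8.68, 8.76 and 8.61 at high density. The groups did not overlap, with a gap of 0.11. The log2 difference of KDM3A was 0.20 (95% interval 0.03 to 0.36) and did not pass the FDR (limma's adjusted p = 0.0965). Over the alternatives the adjusted p was between 0.0402 and 0.234, and it passed with moderated variances that were fitted robustly along a trend (0.0402) and after the filter at the background level (0.0403). None of 17 transcript clusters of other JmjC histone demethylases was called. With 3.97% of all transcript clusters called up and 3.51% down, a list of this length holds few or no calls. The median log2 difference of the 17 was 0.03, or 0.02 without high density replicate 2 and −0.01 when the arrays were set to one common median. By the FDR alone KDM4B and KDM4C were higher at high density (0.49 and 0.56), and KDM5A and JMJD1C were lower (−0.47 for both). Under a second quantile normalization 1 of them, KDM4C, was called up, with a log2 difference of 0.60.

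Within the high density group the same cultures often lay at the ends of the range. High density replicate 1 was the highest of its group in 7 of the genes and replicate 3 in 0, while replicate 3 was the lowest in 8. Over all transcript clusters replicate 1 was the highest in 34.9% and replicate 3 the lowest in 26.3%. The largest deviation at high density was 0.24, for CA9 in replicate 1, and the largest at normal density was 0.28, for NDUFA4L2 in replicate 2. The SD was larger at high than at normal density in 6 of the 10 genes and in 68.4% of all transcript clusters.

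**Figure D3:**
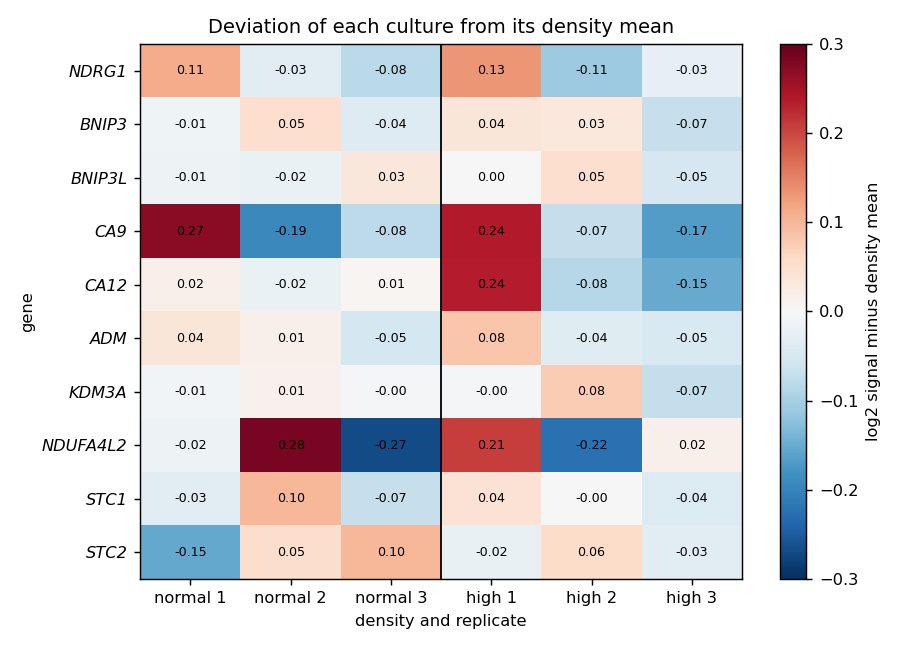
Deviation of each culture (columns) from the mean of its density for each gene (rows), in log2 signal, printed in the cells and coloured from blue (below the mean) to red (above). High density replicate 1 is above its group mean or close to it in all genes, and the widest deviations are those of CA9 and NDUFA4L2.

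The genes that control the response moved unequally. Of 11 transcript clusters of HIF subunits and their regulators 3 were called up and 0 down, against 3.97% and 3.51% of all transcript clusters. The median log2 difference of the list was 0.13, which was 0.07 under a second quantile normalization and 0.08 with the arrays set to one common median. EGLN3, a prolyl hydroxylase that is itself induced by HIF, had log2 signals of 4.40, 4.44 and 4.41 at normal density and of 8.07, 8.14 and 7.77 at high density, which is a rise of at least 10.4-fold against background. EGLN1, the main oxygen sensor among these enzymes, has more than one transcript cluster on the array. One was called (12827480, log2 difference 0.65, limma's adjusted p = 7.96e-04) and the other was not (12826646, 0.37, adjusted p = 0.0567). ARNT2, a partner of the alpha subunits, rose by 0.72 on the log2 scale. By the FDR alone 2 genes of the list were lower at high density. They were EGLN2, another of the prolyl hydroxylases, with a log2 difference of −0.36 (limma's adjusted p = 0.0241), and HIF1AN, a hydroxylase that limits the activity of the alpha subunits, with −0.29 (0.0324). The alpha subunit HIF1A had log2 signals between 11.24 and 11.25 at normal density and between 11.01 and 11.08 at high density, a log2 difference of −0.21 (95% interval −0.36 to −0.06) that did not pass the FDR (limma's adjusted p = 0.0611). EPAS1, which encodes the HIF2 alpha subunit, had a log2 difference of 0.30 (limma's adjusted p = 0.0689).

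Other HIF targets were more often higher than lower. Their list was written from textbook knowledge but with earlier results of these data known, so its counts are a description. Of 34 transcript clusters outside glycolysis 15 were called up and 0 down, against 3.97% and 3.51% of all transcript clusters. Their median log2 difference was 0.53. By the FDR alone 23 were higher, against 8.64% of all transcript clusters. The largest measured log2 differences were those of LOX, which cross-links collagen, of the chemokine receptor CXCR4 and of the binding protein IGFBP3 (1.82). LOX and CXCR4 were below background in all normal density cultures, so that only rises of at least 2.60-fold and 3.94-fold can be given for them and their order among the list is not settled. VEGFA, the main growth factor of vessels, had log2 signals of 9.89, 9.79 and 9.67 at normal density and of 10.88, 10.85 and 10.87 at high density, a 2.11-fold rise (limma's adjusted p = 1.55e-04). Without high density replicate 2, or with the arrays set to one common median, 13 were called up, since RORA and AK4 were then below the FC threshold.

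Among 23 transcript clusters of glucose uptake and glycolysis 10 were called up and 0 down, with a median log2 difference of 0.34. With the arrays set to one common median 9 were called up and the median was 0.30. A transcript cluster of LDHA (12910555) then lay below the FC threshold, at 0.57. The glucose transporter SLC2A3 rose by 1.99 on the log2 scale, SLC16A3 by 1.54 and the hexokinase HK2 by 1.36. The shares called up were thus 5 of 10 for the genes described here, 15 of 34 for the other targets outside glycolysis and 10 of 23 for those of glycolysis. Over all transcript clusters, those below background included, the share was 3.97%. No difference between these lists was tested.

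**Figure D4:**
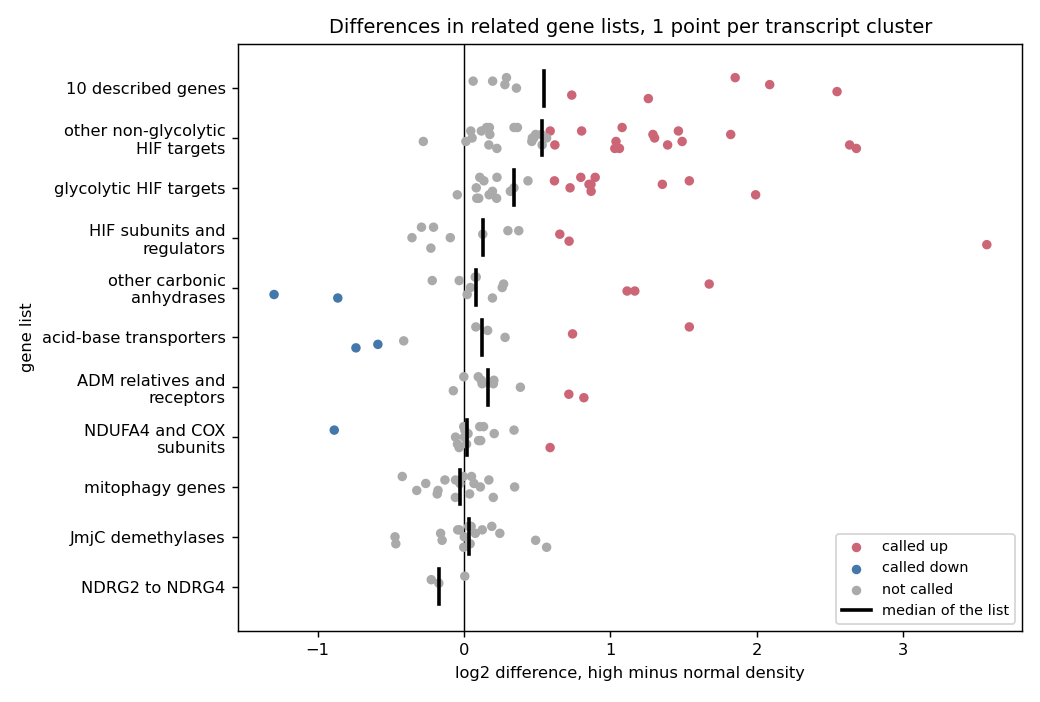
Log2 difference between high and normal density (horizontal axis) for each transcript cluster of the 10 genes and of related gene lists (vertical axis), with the median of each list as a black bar. Red points were called up, blue points down and grey points were not called. The described genes and both lists of other HIF targets hold called rises and no called falls. The carbonic anhydrases and acid-base transporters hold both, and the mitophagy genes, JmjC demethylases and NDRG relatives hold none. Over all transcript clusters 3.97% were called up and 3.51% down, so these last lists are too short for many calls.

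For each of the 5 called genes, the most alike transcript cluster was sought among 11241 named ones with a mean above background at one density at least. The measure was the Euclidean distance of their mean-centred log2 signals over the 6 cultures. A small distance means that a gene changed by a like amount and that its replicates deviated alike. LIMS2 was nearest to NDRG1, at a distance of 0.11 and with a log2 difference of 2.07, followed by RAB33A (0.17) and DPP6 (0.18). BNIP3 was closest to GAS6 (0.08), MTHFD1L (0.09) and NOLC1 (0.09). For NDUFA4L2 the nearest were ERRFI1 (0.20), PTPRN (0.20) and HSD17B1 (0.23), and for CA9 they were CNTNAP1 (0.30), DLC1 (0.34) and FAM196A (0.37). STC2 was closest to PPP1R3C (0.21), PDLIM3 (0.25) and CXCR4 (0.25). The 6 cultures fall into the groups that were compared, so the size of the difference between densities enters these distances. GAS6, DPP6, CNTNAP1, HSD17B1, PPP1R3C and CXCR4 had normal density means below background, as had CA9 and STC2. The distances of these genes rest partly on such signals.

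In the RefSeq annotation of the assembly ARS-UCD2.0 0 of the 10 genes have another of them as its nearest protein-coding neighbour. Of their 20 nearest neighbours, 16 were found in the table by name, and their log2 differences were between −0.54 and 0.62. Only ST3GAL1, beside NDRG1, was called, with a log2 difference of 0.62 (limma's adjusted p = 0.00173).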

How the data were processed

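Gene expression was measured in 6 GC cultures with a whole-transcript bovine Affymetrix array, 1 array per culture. The authors processed the arrays in Expression Console with RMA, and the deposited values are log2 signals per transcript cluster after background reduction, normalization and gene-level summary. The annotation release of the array is not given in the sources used here. The table holds 0 columns of other samples. No further normalization was applied.

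High and normal density were compared over all 26773 transcript clusters by linear models and moderated variances (limma 3.58.1 under R 4.3.3, no covariates) and Benjamini-Hochberg adjustment. A transcript cluster was called at an FC above 1.5 in size with p-value and FDR below 0.05, the thresholds of the methods. Intervals are 95% intervals of the log2 difference from limma. Where all cultures of one density were at or below background, a rise is given as at least the ratio to the background level. The number of arrays limits the precision.

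All 10 genes and every transcript cluster of their symbols are reported. From related lists, up to 3 called genes with the largest differences are named, with EGLN1, EGLN3, HIF1A, EPAS1 and VEGFA in any case. CA10, CA5B, SLC16A7, ST3GAL1, single genes that passed the FDR alone or whose call changed, CALCRL and single marker genes were named after their values were seen. The members and lists were chosen with earlier results of these data known. Of the 10 symbols all were found in RefSeq (ARS-UCD2.0), 5 of them also by accession. The motif search in promoters and the printing of sequences were not done here. The test script was tested on simulated data. The alternatives were a t-test with pooled variance, where the methods name an ANOVA, weights per array, variances fitted robustly along a trend and a replicate block. Further ones were arrays set to one common median, a second quantile normalization and a filter at the background level. The others were treat, an FDR of 0.01 and leaving out each culture. Counts for the gene lists without high density replicate 2 and under the other scalings were added after the data were seen. The plots were made in Python 3.11.15 (matplotlib 3.10.9).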

Additional observations from a re-analysis of the deposited data

How the results depend on the processing

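Of 149 values of the single genes' differences under the alternatives, 147 kept their direction and their state as called or not called, 2 lost the call and 0 changed direction. Part of this was fixed in advance. The t-test, the robust trend, the replicate block, the filter, treat and the FDR of 0.01 leave the log2 difference unchanged. No direction could change under them. Treat and the FDR of 0.01 could only remove a call. The FDR alone was less stable. It was passed by STC1 in 4, by ADM in 12 and by KDM3A in 2 of 13 alternatives, whereas STC1 and ADM passed it and KDM3A did not in the reported comparison. Both losses came from limma's treat, which tests whether a change exceeds the FC threshold itself. It called 3 of the 10 genes up (STC2, NDRG1 and CA9) but not BNIP3 (log2 difference 0.74) or NDUFA4L2 (1.26), and over the table it called 369 transcript clusters up and 160 down. A filter at the background level removed CA12, which lay below the median log2 difference of 0.55 over the 10 genes. The median of the other genes therefore moved up to 0.74. The same 5 genes were called up in all other alternatives that were run, with each culture left out in turn included. With 1 culture left out, 1011 to 1160 transcript clusters of the table were called up and 833 to 1274 down. The planned search for motifs in promoters was not run. The labels do not say whether same-numbered cultures shared a cell preparation. The correlations of their deviations were between −0.05 and 0.05, which cannot decide it with 3 cultures per density. With the replicate block 5 of the 10 genes were called up. Over the table the block gave 1066 transcript clusters up and 954 down, against 1064 and 941 without it. The number of genes that passed the FDR alone was between 5, without normal density replicate 3, and 8. A background level at the 99th percentile of the control rows, 4.92, also left 7 genes above it at both densities. Signals below background limit what can be said of CA12 and of the size of the rises of CA9 and STC2.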
